A study of Zea mays with 4 samples.

Results

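The loci described here are the nuclear short non-coding RNA loci of maize that drew a measurable number of RNA-seq fragments in seedlings. They were selected on their counts: all identifiers that begin with ENSRNA, lie outside the mitochondrial and plastid genomes, and had at least 10 fragments in 2 or more of 4 libraries were taken. This gave 126 of the 1722 nuclear ENSRNA loci, and 126 of the 46430 loci in the whole table. The libraries came from wild-type plants of the inbred line B73, the reference genotype of maize. COLD plants spent 24 h at 4 °C after 9 days of growth, and CK (control) plants stayed at 25 to 28 °C, under 16 h of light and 8 h of dark. Whole seedlings of 10 plants aged 10 days were collected, and each condition has 2 libraries. Nothing in the labels tells whether the 2 libraries of a condition were grown apart. The p-values therefore measure only the spread between these samples, and that spread may be technical.

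Plant nuclear genomes carry many loci for short structured RNAs that are not translated. Transfer RNAs carry amino acids to the ribosome, small nuclear RNAs form the core of the spliceosome, and small nucleolar RNAs guide chemical modification of ribosomal RNA and often lie in clusters or in introns. Ribosomal RNA genes stand in long tandem arrays, and in maize the nucleolus organizer on the short arm of chromosome 6 holds the main one. The table gives each ENSRNA locus a position and a length but no kind and no name, so loci are described by those features and no kind is assigned to any of them. The members, each a single exon, ran from 72 to 1812 bases, with a median of 148.5 against 99 for the 1596 loci below the count rule. The label "short" holds for most of them only: 8 were up to 80 bases long, 43 were 81 to 120, 36 were over 120 and up to 200, and 39 were over 200.

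The counts chose the members, so their level is a description. A total of 1286 of the loci below the rule had no fragment in any library and 310 had some. At the edge of the rule, 8 members had exactly 10 fragments in their second-highest library, and 7 loci just outside had 9. Summed over the 4 libraries, members had between 30 and 4025 fragments, with a median of 75. In CPM, fragments per 1000000 of the normalised library size, 79 of 126 members averaged under 1 CPM and 5 averaged 10 CPM or more. Together they took 0.0314% and 0.0240% of the fragments of the COLD libraries and 0.0243% and 0.0308% of the CK libraries. Without the most abundant member the shares were 0.0216% and 0.0212% in COLD and 0.0233% and 0.0275% in CK. These shares are of library totals before scaling, so their order need not be that in CPM. The library totals were 24176378 and 20942576 fragments in COLD and 28493929 and 23713326 in CK. Mitochondrial loci took 0.134% and 0.112% of fragments in COLD and 0.0767% and 0.0703% in CK. This share may reflect RNA quality or other differences between the conditions, and its part in the results below was not tested. In whole seedlings, fewer cells of a type and less RNA per cell cannot be told apart.

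Position relative to the annotated Zm00001d genes went with whether a locus reached the count rule. Of 579 loci that overlap an exon of a gene on the same strand, 2 were members, or 0.345%, and 572 had no fragment at all. Reads that overlap more than 1 gene were left out of the counts, so a fragment that touches both such a locus and the exon counts for neither. The counts therefore cannot show how much RNA the loci over exons give, and the part of this step was not tested. Of 100 loci inside an intron on the same strand, 18 were members, or 18.0%. None of the 14 loci over an exon on the opposite strand and none of the 10 in an intron on the opposite strand was a member. Outside genes, 23 of 194 loci within 1 kb of a gene were members, as were 33 of 277 at 1 to 5 kb and 33 of 461 farther away. On unplaced contigs without any Zm00001d gene, 17 of 87 loci were members, or 19.5%. Length varied too: 1.48% of the 542 loci up to 80 bases long were members, and of the 230 loci over 200 bases 39 were. The count rule does not divide fragments by length, so a longer locus can reach it more easily. The part of length was not tested. Reads that map to several places were also left out, so members of repeated families are seen only through reads that distinguish one copy.

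**Figure D1:**
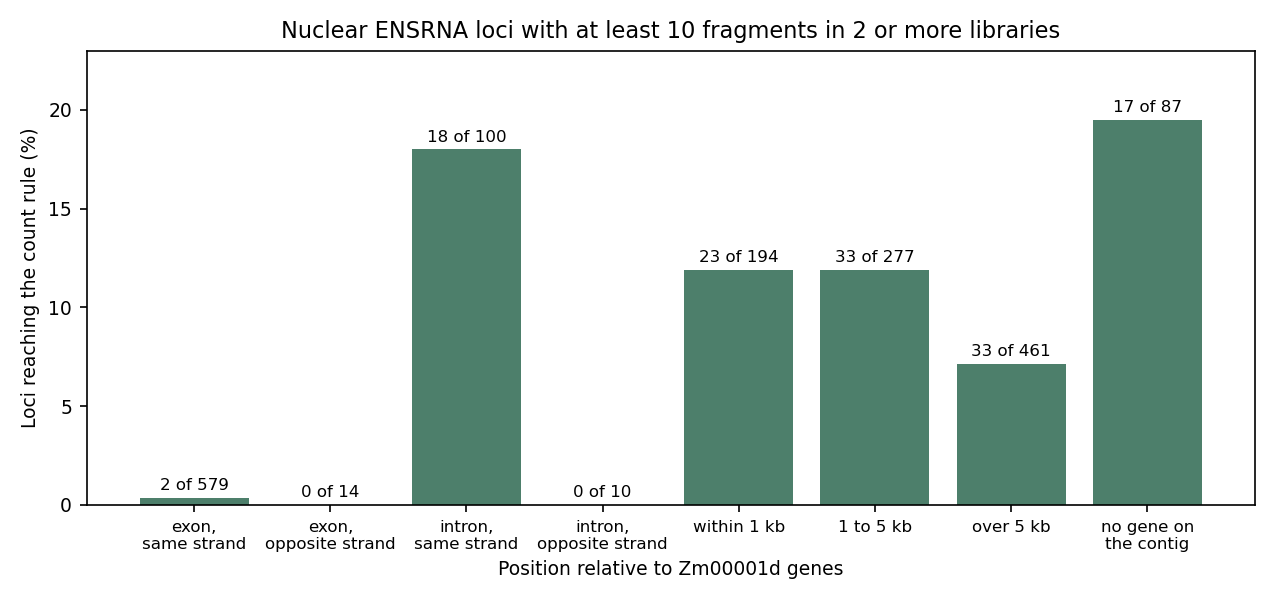
Share of nuclear ENSRNA loci that reached the count rule (%, y axis) by position relative to Zm00001d genes (x axis), with the number of members and of loci above each bar. Loci over an exon reached the rule in 2 of 579 cases on the same strand, and loci in an intron on the same strand in 18 of 100. Fragments that touch both a locus and an exon of a gene were not counted, which limits the bars for exons.

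In COLD against CK the members moved in both directions. Of 119 that could be tested, 24 were higher in COLD, 19 were lower and 76 were not called (edgeR, quasi-likelihood, with p adjusted by Benjamini-Hochberg over all 23169 loci tested and called under 0.05). The shares were 20.2% higher and 16.0% lower, beside 27.0% higher and 27.0% lower over all loci tested. The other 7 members did not pass the filter on low counts. The median log2 fold change of the tested members was 0.35, and that of all loci tested was -0.03. Both COLD libraries lay above both CK libraries in CPM for 38.7% of tested members and below them for 31.9%, against 38.2% and 41.2% of all loci tested. No called member overlapped between the conditions, so where this is stated below for called loci it adds nothing to the call. Members have few fragments, and their calls are set here beside loci of like depth. With a mean under 20 fragments, 7 of 60 tested members were higher and 6 lower, beside 18.0% and 18.3% of all loci in that range. With a mean of 20 to 50 fragments, 11 of 37 were higher and 8 lower, beside 16.9% and 23.2%. With a mean of 50 to 200 fragments, 4 of 17 were higher and 3 lower, beside 21.4% and 32.1%.

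How a member met the count rule also went with its call. The 14 members that met it through the COLD libraries alone had to differ, and 13 of them were called higher. The 16 that met it through the CK libraries alone had to be lower in COLD in fragments but not in CPM, since the CK libraries are larger after scaling. Of these, 7 of the 15 tested were called lower. The 96 others, with 90 tested, gave 11 higher and 12 lower. They had at least 10 fragments in at least 1 library of each group, and are said below to meet the rule through both groups. Some had 2 such libraries in 1 group and only 1 in the other, so the count rule can favour a difference in these too. With DESeq2, 17 members were higher and 12 lower, beside 5901 and 5127 over all loci. Scaling by library totals alone gave 18 higher and 23 lower, beside 4768 and 8188 over all loci. Upper quartiles gave 19 and 23, beside 5199 and 7849 over all loci. The balance of directions thus depends on the scaling, in the whole table as well as in the members. Leaving out each library in turn left between 15 and 19 higher and between 8 and 15 lower. The fewest lower calls came without CK replicate 2 (8) and without COLD replicate 1 (9), and without CK replicate 1 there were 12. The calls of 11 higher and 7 lower members held in all 4 fits with a library left out.

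By length, the calls are described here beside the 27.0% called in each direction over all loci tested. At low depth, where most members lie, the shares over all loci were smaller, here and in the comparisons below. They were 18.0% higher and 18.3% lower at a mean under 20 fragments, and 16.9% and 23.2% at 20 to 50. Among the 35 tested members of over 120 and up to 200 bases, 14 were higher in COLD (40.0%) and 7 lower. Of those 14, 9 met the count rule through the COLD libraries alone, and the 23 tested members that met it through both groups gave 5 higher and 6 lower. Among the 41 tested members of 81 to 120 bases, 3 were higher (7.32%) and 12 lower (29.3%). The lower share is near that of all loci and above that of loci of low depth. Of those 12, 6 met the rule through the CK libraries alone, and the 29 that met it through both groups gave 2 higher and 6 lower. Of 35 tested members over 200 bases, 7 were higher and 0 lower. Of those 7, 3 met the rule through COLD alone, and the 31 that met it through both groups gave 4 higher and 0 lower. None of the 8 members up to 80 bases was called, their log2 fold changes lay between -1.31 and 0.69, and 0 had an unadjusted p under 0.05. DESeq2 also called 0 of these 8. For the loci over 200 bases, 0 were lower in edgeR even at an unadjusted p under 0.05, DESeq2 found 0, and 1 was lower without CK replicate 1. DESeq2 called 1 of the loci over 200 bases higher, and leaving out a library gave between 1 and 4. For the loci of 81 to 120 bases it called 7 lower, and the lower count fell to 5 without CK replicate 2 and to 6 without COLD replicate 1. For the loci of over 120 and up to 200 bases the higher count was 11 or 12 with a library left out, and the lower count was 3 without COLD replicate 1, without CK replicate 1 or without CK replicate 2. Differences between the length classes were not tested.

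**Figure D2:**
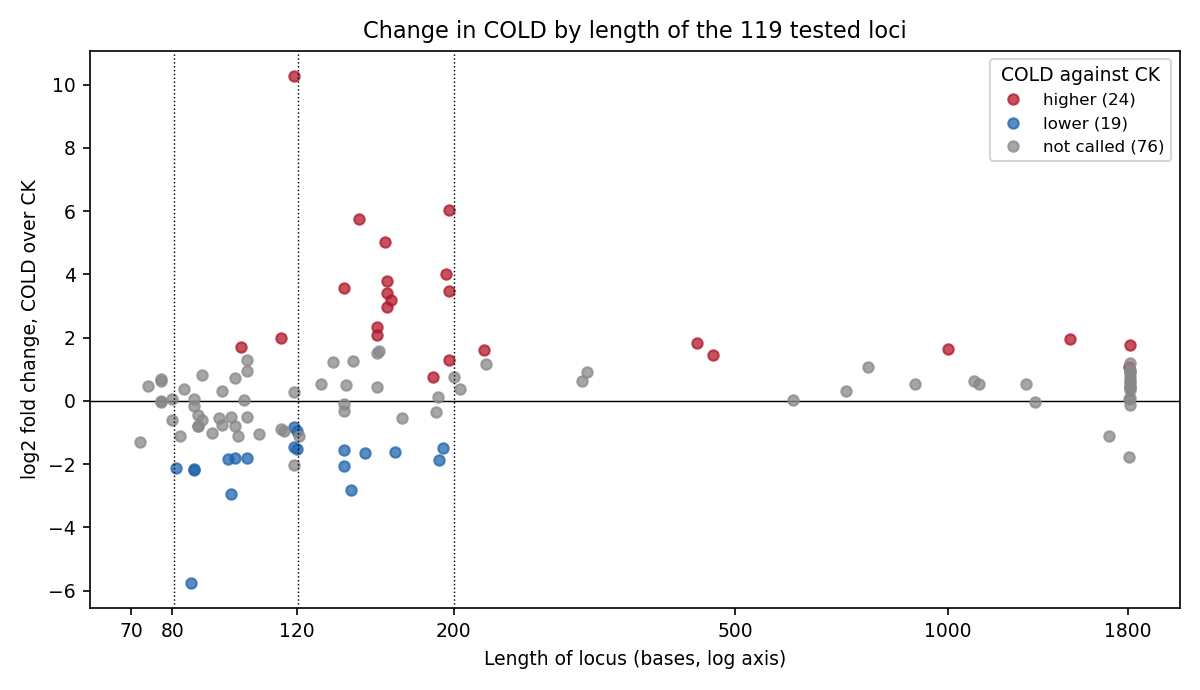
Log2 fold change, COLD over CK (y axis), against the length of the locus in bases (x axis, log scale) for the 119 tested members, coloured by call. Dotted lines mark the limits of the length classes. Apart from the locus of 119 bases, the called increases of over 3 on the log2 scale sit between 120 and 200 bases, and most called decreases lie at 150 bases or less. That locus of 119 bases had 0 fragments in CK, so its height is not an estimate of size.

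The steepest rise was in a locus with no fragment in either CK library. ENSRNA049472536, a 119-base locus on the minus strand of chromosome 2 (4662757 to 4662875, B73 RefGen_v4), had 114 and 145 fragments in COLD and 0 and 0 in CK. Its level was 4.88 and 7.75 CPM in the COLD libraries, at least 115-fold higher than a floor of 3 fragments over the CK group. The 95% exact counting interval of the COLD to CK ratio began at 92.9 (adjusted p = 0.00014). Since the fragments carry no molecular identifiers, they may repeat a molecule, and intervals and floors cover counting error alone. ENSRNA049473651, a 197-base locus on the plus strand of chromosome 1 (66512570 to 66512766), had 70 and 133 fragments in COLD and 1 and 3 in CK. In CPM it stood at 5.06 ± 2.91 in COLD and 0.0742 ± 0.0578 in CK (SD, n = 2 each), with a fitted log2 change of 6.03 (adjusted p = 0.0004, SE 0.70). Both COLD libraries lay far above both CK libraries in each of these loci. The fitted change of ENSRNA049473651 stayed at or above 5.31 with a library left out. That of ENSRNA049472536 stayed at or above 10.02, but with 0 fragments in CK its size is not an estimate. For its ratio the counts give only the lower bound above.

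Loci of about 140 to 200 bases filled the other places among the 8 largest rises, all of which but that of a 161-base locus met the count rule through the COLD libraries alone. On chromosome 5, a 147-base locus on the minus strand (3204713 to 3204859) had 195 and 252 fragments in COLD and 9 and 2 in CK. Its level was 10.9 ± 3.62 CPM in COLD and 0.188 ± 0.158 CPM in CK (SD, n = 2 each), with a fitted log2 change of 5.76 (adjusted p = 0.0001, SE 0.48). A 160-base locus on the plus strand of chromosome 1 (190050469 to 190050628), 23002 bases from the nearest gene, had 58 and 68 fragments in COLD and 3 and 2 in CK. Its log2 fold change was 5.02 (adjusted p = 0.00024, SE 0.52). In both loci every COLD library exceeded every CK library many times over. A 195-base locus on chromosome 1 (14212726 to 14212920, plus strand) had 45 and 42 fragments in COLD and 5 and 2 in CK, a log2 fold change of 4.01 (adjusted p = 0.0007, SE 0.53). A 140-base locus on chromosome 2 (67281149 to 67281288, plus strand) had 35 and 62 in COLD and 4 and 7 in CK, a log2 fold change of 3.56 (adjusted p = 0.0022, SE 0.61). The COLD and CK libraries did not overlap in either, and the calls of these 4 loci held with any library left out.

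Equal length went with equal direction at some lengths and not at others. Of 12 exact lengths shared by 3 or more members, those of 161 and 197 bases had every member called, all higher in COLD, and they were picked out after the values were seen. Of these loci, 1 of 161 bases and 2 of 197 bases met the count rule through the COLD libraries alone and so had to be higher. All log2 fold changes were also positive at 156 and 1810 bases and negative at 87 bases, and 8 of 9 were positive at 1811 bases. Signs were mixed at 77, 86, 98, 102, 119 and 140 bases. The 5 members of 119 bases gave 1 higher and 2 lower, with log2 fold changes of -2.04 to 10.27, and the 5 of 140 bases gave 1 higher and 2 lower, from -2.06 to 3.56. The 10.27 is that of the locus with 0 fragments in CK and is not an estimate of size. The 161-base locus at 3433111 to 3433271 on the plus strand of chromosome 5 had 187 and 264 fragments in COLD and 29 and 16 in CK. Its level was 11.1 ± 4.32 CPM in COLD and 0.791 ± 0.250 CPM in CK (SD, n = 2 each), with a fitted log2 change of 3.78 (adjusted p = 0.00021, SE 0.38). The other two 161-base loci lie on chromosome 5 at 3203379 to 3203539 (minus strand) and 213693607 to 213693767 (plus strand). They had 40 and 36 fragments in COLD against 10 and 3 in CK, and 32 and 41 in COLD against 5 and 4 in CK, with log2 fold changes of 2.96 and 3.42. The 3 loci are alike in direction but their COLD levels differ several-fold. A 163-base locus on chromosome 9 (128658845 to 128659007, plus strand) had 49 and 73 fragments in COLD and 10 and 8 in CK, with a log2 fold change of 3.20 (adjusted p = 0.0012, SE 0.48).

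The other 197-base loci changed less than the first. The one on chromosome 1 at 66394099 to 66394295, 118274 bases from the first, had 11 and 23 fragments in COLD and 3 and 1 in CK (log2 fold change 3.46, SE 0.81, adjusted p = 0.009). The ratio of summed fragments was 11.3, with a 95% exact counting interval of 4.04 to 44.0, and the call was lost without COLD replicate 2 or CK replicate 2 (fitted changes of 2.66 to 4.27 with a library left out). The one on chromosome 4 (240719393 to 240719589, minus strand) had 31 and 25 fragments in COLD and 14 and 16 in CK, and its call (log2 fold change 1.30, adjusted p = 0.034) was lost when any library was left out, with fitted changes of 1.12 to 1.49. The table holds 28 nuclear loci of 161 bases and 38 of 197 bases, and those below the count rule hold few fragments. Over the 25 other loci of 161 bases the summed level was 1.03 and 1.87 CPM in COLD and 0.500 and 0.384 CPM in CK. Over the 35 other loci of 197 bases it was 1.11 and 1.6 CPM in COLD and 0.167 and 0.384 CPM in CK. In both sets the COLD sums lay above the CK sums, with 9 loci in each set having any fragment. The same held for loci below the rule of 77, 87, 156, 1810 and 1811 bases, so it was not particular to these lengths. Loci of equal length may be near-identical copies that share reads, so the origin of fragments among them is uncertain.

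**Figure D3:**
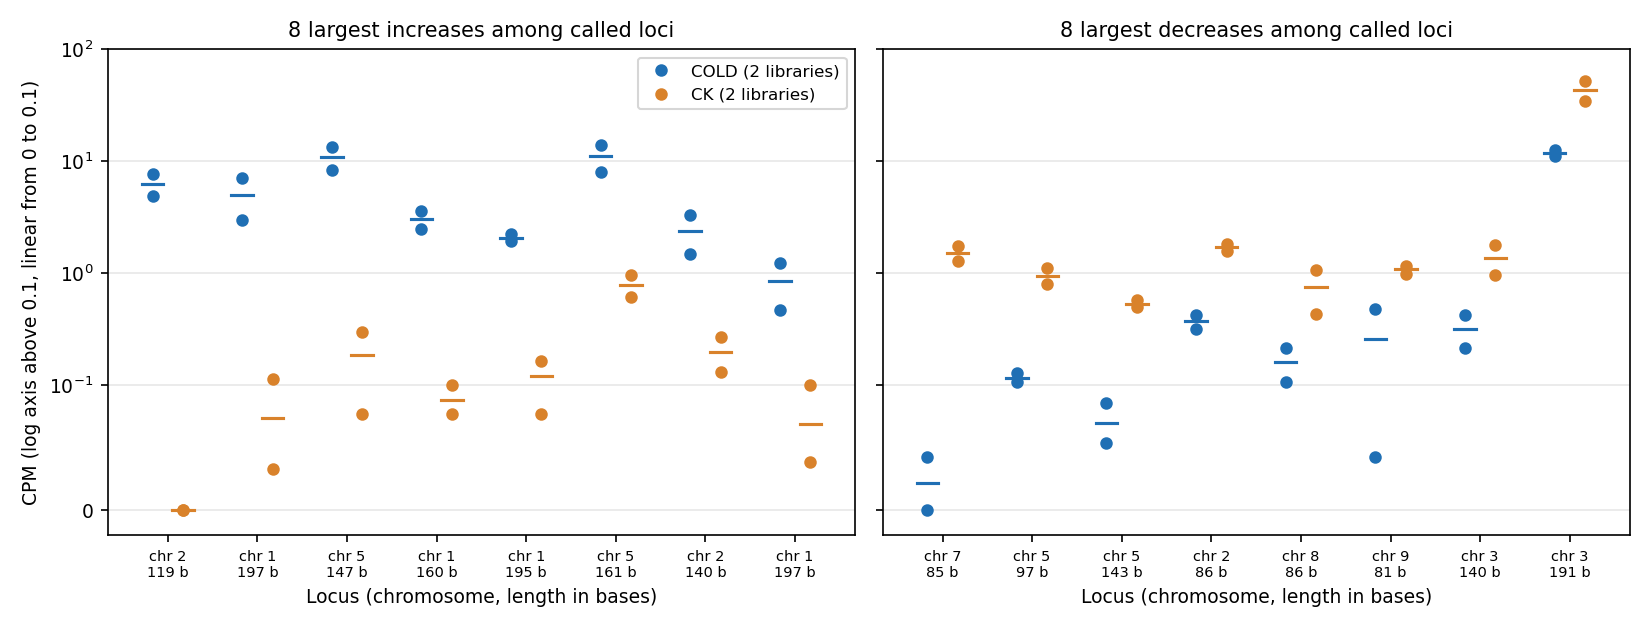
CPM in each library (points) and group means (short lines) for the 8 called members with the largest increase (left) and decrease (right), COLD left of CK at each locus. The y axis is logarithmic above 0.1 CPM and linear below it. COLD and CK points do not overlap at any of the 16 loci. The same holds for all called members, so it adds nothing to the calls. Over all loci tested, both COLD libraries lay above both CK libraries in 38.2% and below them in 41.2%.

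Among the loci that were lower in COLD, the steepest had a single fragment in the COLD libraries. Of the 8 largest falls, 5 met the count rule through the CK libraries alone. ENSRNA049476276, an 85-base locus on chromosome 7 (5206371 to 5206455, minus strand), had 1 and 0 fragments in COLD and 39 and 46 in CK. The CK to COLD ratio of summed fragments was 63.8, with a 95% exact counting interval of 11.1 to 2550 (adjusted p = 0.0009). ENSRNA049458957, 97 bases on the plus strand of chromosome 5 (195870898 to 195870994), had 3 and 2 fragments in COLD and 24 and 29 in CK. Its level was 0.118 ± 0.0152 CPM in COLD and 0.957 ± 0.221 CPM in CK (SD, n = 2 each), with a fitted log2 change of -2.95 (adjusted p = 0.0048, SE 0.60). Both calls held with any library left out, and the COLD libraries lay below the CK libraries throughout. An 86-base locus on chromosome 2 (110931756 to 110931841, plus strand) had 10 and 6 fragments in COLD and 48 and 48 in CK (log2 fold change -2.17, adjusted p = 0.0047). Its neighbour of 140 bases, 51 bases away on the same strand, had 12 and 15 in COLD and 44 and 62 in CK (log2 fold change -1.55, adjusted p = 0.022). The neighbour's call was lost without COLD replicate 1 or CK replicate 2, with a fitted change between -1.87 and -1.17 over the left-out fits.

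Some of the larger decreases rest on few fragments. An 81-base locus on chromosome 9 (132913275 to 132913355, plus strand) had 1 and 9 fragments in COLD and 35 and 26 in CK, a log2 fold change of -2.12 (adjusted p = 0.047, SE 0.76). Its fitted change ran from -4.51 to -1.16 with a library left out, and it stayed called only without COLD replicate 2. A 140-base locus on chromosome 3 (212803221 to 212803360, plus strand) had 10 and 4 fragments in COLD and 54 and 25 in CK (log2 fold change -2.06, adjusted p = 0.017). Its call was lost without COLD replicate 2 or CK replicate 1, with fitted changes from -2.67 to -1.52. The libraries of the 2 conditions did not overlap in either locus.

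Smaller rises reached several lengths and chromosomes. Of the 4 members of 156 bases, 2 were called higher, one on chromosome 10 (35065498 to 35065653) with 19 and 16 fragments in COLD and 7 and 2 in CK, the other on contig B73V4_ctg140 (339309 to 339464) with 27 and 15 in COLD and 8 and 5 in CK. Their calls, at log2 fold changes of 2.35 and 2.07, were each lost in 3 of 4 fits with a library left out (1.81 to 3.36, and 1.77 to 2.34). The first held without CK replicate 1 and the second without COLD replicate 2. A 114-base locus on chromosome 7 (46266060 to 46266173) had 59 and 66 fragments in COLD and 23 and 19 in CK (log2 fold change 2.0, SE 0.36, adjusted p = 0.0028). Its nearest gene, 1667 bases away on the opposite strand, had 1.71 (adjusted p = 8.2e-05, SE 0.13). The call of the locus held with any library left out. A 100-base locus on chromosome 1 (143229412 to 143229511) had 60 and 73 in COLD and 37 and 19 in CK, and its call (log2 fold change 1.70, adjusted p = 0.009) was lost without CK replicate 2 (1.37 to 2.15 over the left-out fits). On chromosome 4, a 120-base locus (154380191 to 154380310) was lower, with 55 and 73 fragments in COLD and 168 and 170 in CK (log2 fold change -0.96, adjusted p = 0.025), a call lost without COLD replicate 1 or CK replicate 2 (-1.35 to -0.63). None of these 5 loci had overlapping CPM between the conditions.

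Abundant loci gave the most precise decreases. A 193-base locus on chromosome 2 (31647279 to 31647471, minus strand) had 365 and 317 fragments in COLD and 1455 and 1129 in CK. Its level was 16.3 ± 0.933 CPM in COLD and 45.9 ± 3.66 CPM in CK (SD, n = 2 each), with a fitted log2 change of -1.50 (adjusted p = 0.00012, SE 0.13). A 191-base locus on chromosome 3 (58127890 to 58128080, minus strand) had 259 and 235 fragments in COLD and 1045 and 1362 in CK. It stood at 11.8 ± 1.04 CPM in COLD and 43.6 ± 12.3 CPM in CK (SD, n = 2 each), with a fitted log2 change of -1.88 (adjusted p = 0.00032, SE 0.21). These loci lie 39952 and 39518 bases from the nearest gene, and both calls held with any library left out.

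The other abundant members varied between replicates. The member with the highest mean, an 1811-base locus on contig B73V4_ctg154 (51858 to 53668, plus strand), had 2375 and 591 fragments in COLD and 287 and 772 in CK. In CPM that is 102 and 31.6 in COLD and 9.57 and 29.6 in CK, so the lower COLD library barely exceeded the higher CK library. Its call (log2 fold change 1.78, SE 0.61, adjusted p = 0.04) was lost without COLD replicate 1 or CK replicate 1, and the fitted change ran from 0.70 to 2.79 with a library left out. A 187-base locus on contig B73V4_ctg134 (6655 to 6841, minus strand) had 427 and 222 fragments in COLD and 237 and 259 in CK (log2 fold change 0.76, adjusted p = 0.028). This call too was lost without one or the other of those libraries (0.41 to 1.05). A 77-base locus on the same contig (76055 to 76131, minus strand) had 382 and 217 fragments in COLD and 257 and 522 in CK, and was not called (log2 fold change -0.02, adjusted p = 0.96). An 1810-base locus on chromosome 6 (25442311 to 25444120, minus strand) had 163 and 182 fragments in COLD and 194 and 154 in CK (log2 fold change 0.43, adjusted p = 0.14). The libraries of the 2 conditions overlapped in the 77-base locus, and in CPM they did not in the 1810-base locus.

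Long loci on chromosome 6 and on contigs formed a group of their own in position. Of the 39 members over 200 bases, 29 lie on chromosome 6 or on unplaced contigs, and 19 members are 1800 bases long or more. Of these 19, 17 were tested, 2 were higher in COLD (11.8%) and 0 lower, beside 27.0% each way over all loci tested. Of the 17 log2 fold changes 15 were positive, with a median of 0.61, beside a median of -0.03 over all loci tested. Such loci may be near-identical copies, seen only through reads that map to a single place, and the signs may not be independent. Besides the locus on contig B73V4_ctg154, the call among these 19 was that of an 1803-base locus on contig B73V4_ctg203 (70536 to 72338, plus strand). This locus had 46 and 28 fragments in COLD and 22 and 24 in CK. Its log2 fold change was 1.07 (adjusted p = 0.049, SE 0.39), and the call was lost when any library was left out (0.86 to 1.26). Replicate 1 was the higher COLD library at many of these loci: an 1811-base locus on contig B73V4_ctg154 (22228 to 24038) had 162 and 30 fragments in COLD and 42 and 63 in CK. The members over 200 bases together took 0.0154% and 0.00703% of the COLD libraries and 0.00466% and 0.00732% of the CK libraries. The share of COLD replicate 2 was thus below that of CK replicate 2. These shares are of library totals before scaling. With the TMM factors of 0.8935 for COLD replicate 2 and 1.1 for CK replicate 2, the order of these libraries is the reverse in CPM. Near the 14 Mb region of chromosome 6, loci of 1002 bases (14270867 to 14271868) and 1489 bases (14464912 to 14466400) were called higher. They had 41 and 23 fragments in COLD against 19 and 8 in CK, and 24 and 12 in COLD against 7 and 5 in CK. The first call was lost without COLD replicate 1 or CK replicate 2 (1.23 to 2.28), and the second held only without COLD replicate 2 (1.57 to 2.25).

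The calls in runs of neighbouring members were decreases. There were 5 runs of 3 or more members with gaps of up to 2 kb, 23 loci in all, of which 22 were tested, 8 were lower in COLD (36.4%) and 0 were higher, beside 27.0% each way over all loci tested. Of the 8, 3 met the count rule through the CK libraries alone, and the 16 tested loci that met it through both groups gave 5 lower and 0 higher. In edgeR, 1 locus of the runs was higher at an unadjusted p under 0.05. DESeq2 found 0 higher there and 5 lower. Among the 75 tested members without another member within 2 kb, 21 were higher (28.0%) and 8 lower (10.7%). Of the 21, 11 met the rule through COLD alone, and of the 8, 4 through CK alone. The 58 that met it through both groups gave 10 higher and 4 lower. The difference between these arrangements was not tested. The lower count in the runs was 4 without COLD replicate 1, 5 without CK replicate 1 and 3 without CK replicate 2. Loci in a run lie on 1 strand, the next within 2 kb, so they are not independent, and fragments that overlap 2 of them were left out of the counts.

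The run with the most loci is on the plus strand of chromosome 5 (195870590 to 195871920), with 6 members of 82 to 150 bases and gaps of 66 to 210 bases. Its summed level was 2.14 and 1.98 CPM in COLD and 5.50 and 6.87 CPM in CK. All 6 log2 fold changes were negative, from -2.95 to -0.79, and 3 were called. Besides the 97-base locus given above, the called loci were one of 150 bases, with 10 and 12 fragments in COLD and 47 and 45 in CK, and one of 120 bases, with 17 and 10 in COLD and 49 and 53 in CK. Their log2 fold changes were -1.63 and -1.52 (adjusted p = 0.014 and 0.015). The run at 78513416 to 78515471, 5 loci on the minus strand of chromosome 5, had a summed level of 4.84 and 6.85 CPM in COLD and 12.2 and 12.4 CPM in CK. There the 119-base locus at the start was called lower, with 54 and 64 fragments in COLD and 240 and 204 in CK (log2 fold change -1.47, SE 0.25, adjusted p = 0.0023). The other 4 had log2 fold changes of -1.11, -0.34, 0.03 and -1.0 and were not called.

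On chromosome 8, the 3 loci of the run at 128420226 to 128420793 (minus strand) summed to 0.942 and 1.23 CPM in COLD and 2.93 and 3.91 CPM in CK. Its 96-base locus had 10 and 11 fragments in COLD and 53 and 47 in CK (log2 fold change -1.82, SE 0.41, adjusted p = 0.0079). The 86-base locus beside it had 5 and 2 in COLD and 13 and 28 in CK (log2 fold change -2.14, adjusted p = 0.039), and the 99-base locus was not called (-1.10, adjusted p = 0.11). The remaining run on chromosome 5 (49521493 to 49523446, plus strand, 4 loci) summed to 2.74 and 3.58 CPM in COLD and 4.57 and 5.64 CPM in CK. Of its loci only one of 102 bases was called, with 2 and 5 fragments in COLD and 19 and 15 in CK (adjusted p = 0.0496). The run on chromosome 6 (92504748 to 92505763, minus strand, 5 loci) summed to 4.97 and 5.35 CPM in COLD and 6.27 and 7.68 CPM in CK. Its 119-base locus was called lower, with 54 and 61 fragments in COLD and 140 and 132 in CK (log2 fold change -0.81, adjusted p = 0.036). At the other end of that run, a 135-base locus had 17 and 13 in COLD and 9 and 8 in CK (log2 fold change 1.22, adjusted p = 0.072). In all 5 runs the summed COLD levels lay below the summed CK levels, while single loci within a run differed in size and, in the 2 runs last named and the one at 78513416, in sign. Of the 8 calls in the runs, those of the 119-base locus at 78513416, the 97-base locus and the 96-base locus held with any library left out, and the other 5 were lost in at least 2 of 4 such fits. Their fitted changes were then between -2.75 and -0.58.

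**Figure D4:**
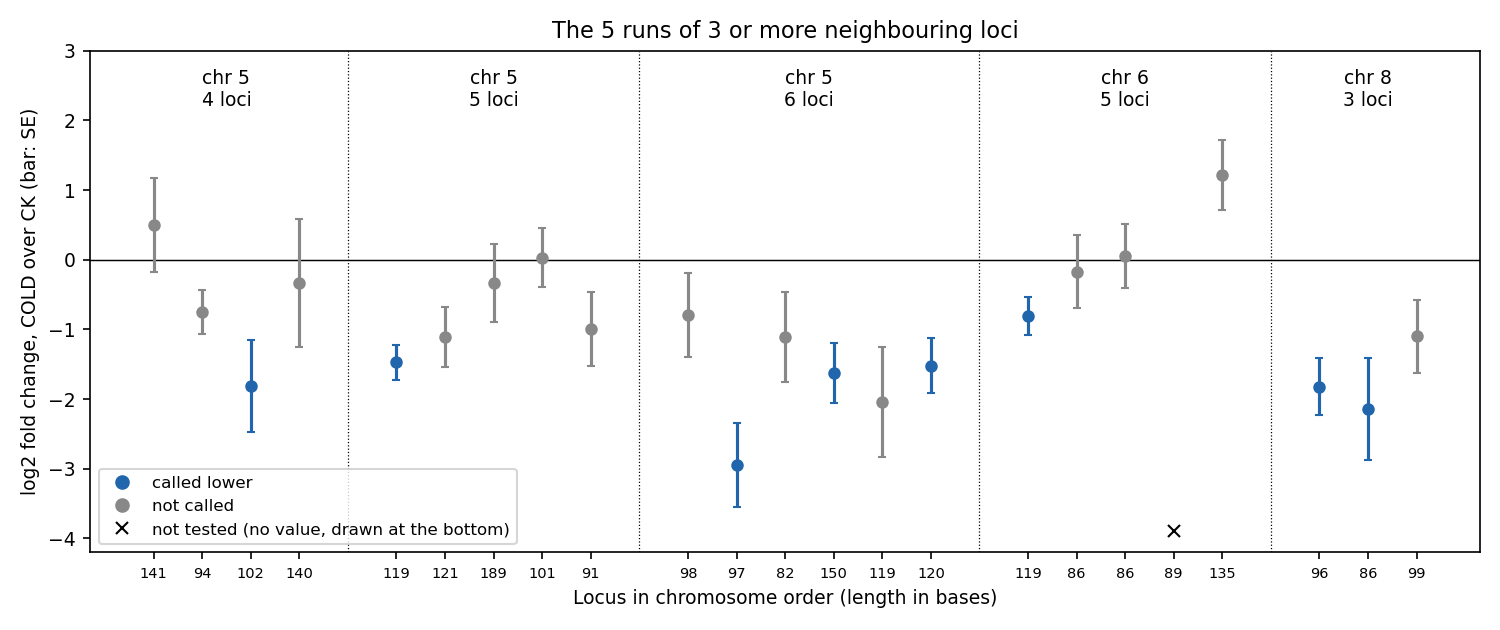
Log2 fold change, COLD over CK, with its standard error (y axis) for the 23 members in the 5 runs, in chromosome order (x axis, labelled by length in bases). The 8 called loci are all below 0, and the 6 loci of the middle panel are all negative.

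Members inside introns were mostly not called, including in genes that fell. The 18 intronic members lie in 14 host genes, all on the host's strand, 123 to 808 bases from the nearest exon. Of the 14 host genes 6 were lower in COLD and 0 higher, while of 16 tested intronic members 1 was lower and 0 were higher (1 higher at an unadjusted p under 0.05, and 0 with DESeq2). Over all loci tested 27.0% were called each way, and at a mean under 20 fragments 18.0% higher and 18.3% lower. The lower one, 143 bases on chromosome 5 (221336860 to 221337002, plus strand), had 2 and 1 fragments in COLD and 15 and 15 in CK, and met the count rule through the CK libraries alone. The CK to COLD ratio was 7.5, with a 95% exact counting interval of 2.33 to 38.4, and the adjusted p of 0.012 rose above the threshold when any library was left out (fitted log2 changes of -3.21 to -2.57). Its host gene had a log2 fold change of -0.98 (adjusted p = 0.00069, SE 0.13) beside -2.83 (SE 0.71) for the locus. The largest gap in the other direction was in a 102-base locus on chromosome 3 (126865149 to 126865250, minus strand), with 26 and 18 fragments in COLD and 8 and 15 in CK. It had a log2 fold change of 1.31 (adjusted p = 0.065, SE 0.52), and its host gene -1.34 (adjusted p = 0.0004, SE 0.16).

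Other intronic members stood apart from their hosts or beside them. A 102-base locus on chromosome 1 (155960355 to 155960456) had 17 and 15 fragments in COLD and 9 and 13 in CK, a log2 fold change of 0.94 (SE 0.51), and its host gene -1.47 (SE 0.16). A 94-base locus on chromosome 7 (4984602 to 4984695) had 11 and 5 in COLD and 12 and 5 in CK, a log2 fold change of 0.32 (SE 0.64), and its host -1.28 (SE 0.23). The 4 loci closest to their hosts had log2 fold changes of -0.54, -0.88, 0.05 and 0.39, and the host genes had -0.46, -0.59, -0.16 and 0.27. Of these only the first 2 host genes were called (adjusted p = 0.014 and 0.0049). Across the 16 intronic members with a tested host, 8 had the sign of the host, and Pearson's r of the 2 log2 fold changes was -0.14. These points share the same libraries and 2 members can share a host, so the value is a description. The difference between locus and host was not tested. All these members lie on the host's strand, so unspliced host transcripts and the locus's own RNA cannot be told apart. Strand was also not used in counting.

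The genes nearest to members were called in either direction or not at all. The 23 members within 1 kb of a gene, all tested, gave 10 higher (43.5%) and 4 lower calls in COLD, beside 27.0% each way over all loci. Of the 10, 5 met the count rule through the COLD libraries alone, and the 16 that met it through both groups gave 5 higher and 2 lower. Of the genes nearest to those 10 higher members, 2 were higher, 1 was lower, 4 were not called and 3 were not tested. The 195-base locus on chromosome 1 lies 235 bases before the start of a gene on the opposite strand that had a log2 fold change of -3.19 (adjusted p = 8.1e-05, SE 0.25), beside 4.01 for the locus. ENSRNA049472536 lies 237 bases before the start of a gene on the opposite strand with a log2 fold change of 0.30 (adjusted p = 0.087, SE 0.13). The 163-base locus on chromosome 9 lies 228 bases before the start of its opposite-strand neighbour, which had a log2 fold change of 1.56 (adjusted p = 0.0025). The neighbours of these 3 loci, in the same arrangement, thus had a fall, no call and a rise. Over the 18 loci within 1 kb for which both were tested, 8 had the sign of their gene, and Pearson's r was -0.12, given as a description since all points share the same libraries. Over all members, 72 genes overlapped or lay nearest. Of 50 tested, 10 were higher and 18 lower, beside 27.0% each way over all loci, and 11 were lower without CK replicate 1.

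**Figure D5:**
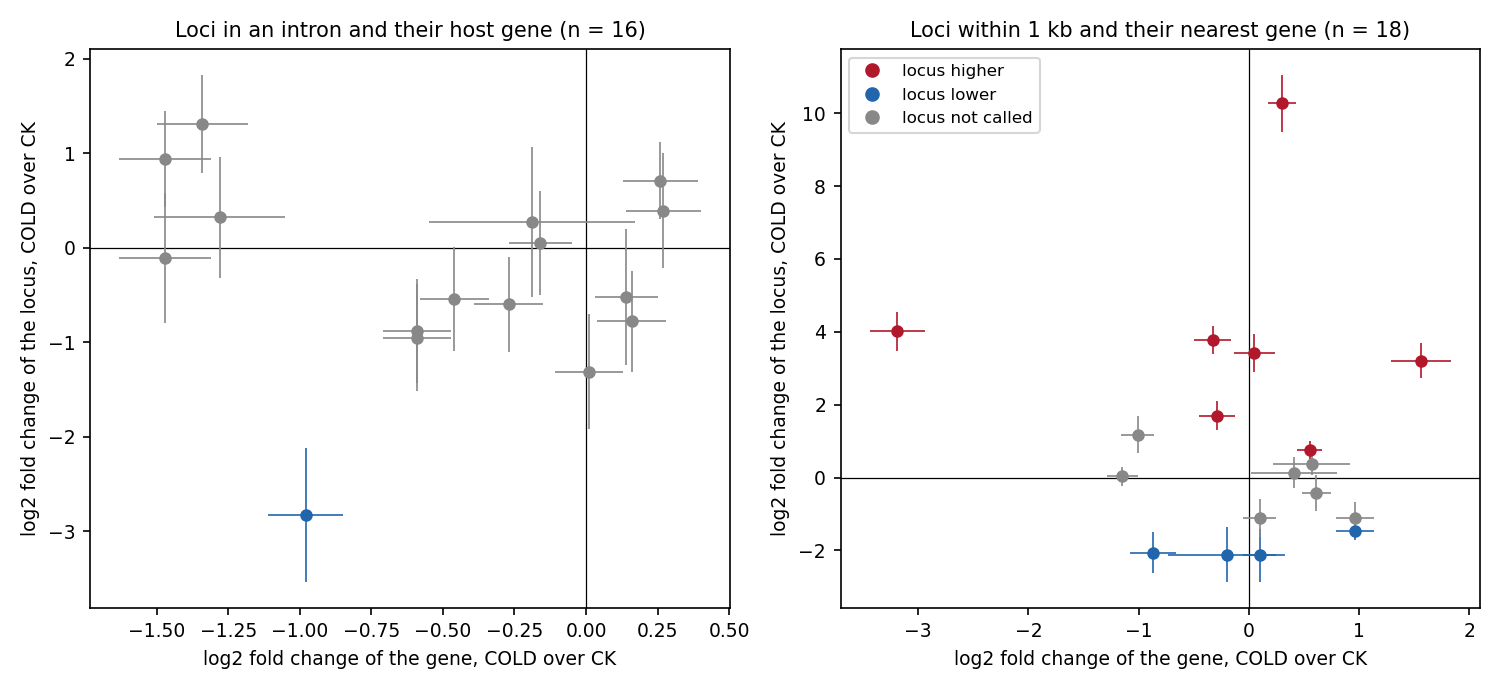
Log2 fold change of the member (y axis) against that of its host gene (left, 16 loci in introns) or its nearest gene within 1 kb (right, 18 loci), COLD over CK, with standard errors as bars and colour by the call of the member. In both panels points lie on both sides of 0 on both axes. Members called higher appear in the right panel only, where their genes lie on both sides of 0.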

How the data were processed

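The authors deposited raw counts of fragments per locus for each library, without pooling, made with featureCounts 1.6.4 from release 43 of the B73 RefGen_v4 annotation, as the file headers state. Pairs were counted as fragments without use of strand, per the file headers, and with no option set for reads on several places or genes, which are then not counted. The submitters' processing notes also list fastp and HISAT2. Other values the authors deposited in the same table, locus lengths and exon coordinates, gave lengths and positions; no reads or genome were used.

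In edgeR 4.0.16 (R 4.3.3), filterByExpr at a count of 10 and a total of 15 kept 23169 loci. These were scaled by TMM (0.9664 and 0.8935 in COLD, 1.053 and 1.100 in CK) and fitted by quasi-likelihood with the condition alone, two-sided. DESeq2 1.42.0 was an alternative. A standard error is the size of the log2 fold change divided by the square root of F. The test was tried on simulated data.

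Named loci were the 8 called members with the largest change each way (at least 20 fragments in all), the 6 with the highest mean CPM, all runs of 3 or more, and the 4 overlapping members most and least different from their gene. Others in the text were picked after their values were seen. The members and lists were chosen with earlier results of these data known. Neither ENSRNA nor Zm00001d identifiers are paired with names in the RefSeq table used (Zm-B73-REFERENCE-NAM-5.0), so lists of genes for RNA processing were not analysed here.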

Additional observations from a re-analysis of the deposited data

How the results depend on the processing

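Depth limits most of these results, since 79 of 126 members averaged under 1 CPM. Upper-quartile factors and library totals alone moved the median log2 fold change of all loci to -0.19 and -0.24, against -0.03 with TMM. They gave 4 and 3 higher loci over 200 bases, and every direction near 0 is relative to that shift. A minimum of 5 CPM in 2 libraries left 12 members tested, 4 higher and 4 lower, with 6 higher genes beside members. It left 0 higher and 2 lower at 81 to 120 bases, 3 higher and 2 lower over 120 and up to 200, 1 higher over 200 and 1 lower in the runs. DESeq2 gave 12 lower members, 7 lower at 81 to 120 bases, 1 higher over 200 and 5 lower in the runs. With no low-count filter, 1 locus over 200 bases was lower. A rule of 20 fragments gave 17 higher and 15 lower. The causes were not tested.

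The replicate numbers showed no clear pairing (r = -0.0711 between the deviations of COLD and CK libraries of number 1 over 23169 loci). This value cannot tell whether libraries of the same number were handled together. With the replicate block, 20 members were higher and 16 lower, and 3 over 200 bases were higher.

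With a library left out, higher members ran from 15 to 19 and lower ones from 8 to 15. Over all loci, lower calls ran from 3978 (without CK replicate 2) to 6397, and among genes beside members from 11 to 19. Lower loci ran from 5 to 10 at 81 to 120 bases, from 3 to 5 over 120 and up to 200, from 0 to 1 over 200, and from 3 to 6 in the runs. Higher loci over 200 bases ran from 1 to 4.

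The sign of 11 named loci, none of them called, turned under some setting. On chromosome 5, the locus at 7141991 had -0.10 with upper quartiles, -0.14 with totals and -0.34 to 0.34 with a library left out. The one at 78515004 had -0.13, -0.18 and -0.09 to 0.16. The one on chromosome 6 at 92505181 had -0.10, -0.16 and -0.14 to 0.27. The 77-base locus on contig B73V4_ctg134 had 0.01 with RLE, 0.07 with the replicate block, 0.01 with DESeq2 and -0.50 to 0.70 with a library left out. With a library left out, the others ran from -0.03 to 1.27 (chromosome 5, 49521493), -2.60 to 0.84 (chromosome 5, 49523307), -1.37 to 0.30 (chromosome 5, 78514438), -0.17 to 1.27 (chromosome 5, 185086294), -1.31 to 0.00 (chromosome 5, 195870590), -0.59 to 0.39 (chromosome 6, 92504959) and -0.10 to 0.96 (chromosome 7, 4984602).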
